A study of Danio rerio with 3 samples.

Results

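The genes described here encode the contractile machinery of muscle and its non-muscle relatives, measured in zebrafish scales. They were found by symbol, as all genes of the array that begin with myh or myl (except mylipa), tnn or tpm, together with acta1a, acta2, actc1b, desma, mb and nme2b.2; no probe set carried the name acta1b. Of 8793 genes with 1 symbol, 36 were found, measured by 46 probe sets, and where a gene had several, the one with the highest average signal stands for it. By a fixed list of classes, 25 were placed with striated muscle, 4 with smooth muscle and 7 with non-muscle cells. The genes tpm1, myl9b and myl6 also have transcripts outside their class. Among the 25 is tnn, which the symbol rule takes in although it encodes tenascin N, a matrix protein, and no troponin.

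The groups were scales kept with 3-hydroxybenzo[c]phenanthrene (3-OHBcP) at 1 nM, scales kept with benzo[c]phenanthrene (BcP), the parent polycyclic aromatic hydrocarbon, at 1 nM, and control scales. All were taken from anaesthetised zebrafish and cultured in L-15 medium at 15 °C, for 6 h. The strain, sex and age of the fish, how many fish or scales made up a sample, and whether the control medium held a solvent are not given in the sources used here. Each group had 1 array, so the differences below have no replicate check, and every value describes these 3 arrays. A scale is a thin bony plate with bone-forming and bone-resorbing cells, covered by skin.

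In striated muscle, myosin heavy chains form the thick filaments and carry the motor, with an essential and a regulatory light chain on each head. Actin, tropomyosin and the troponin complex form the thin filament, in which troponin C binds calcium, troponin I holds contraction back and troponin T ties the complex to tropomyosin. In smooth muscle and non-muscle cells a light chain kinase switches myosin on instead, and related myosins and tropomyosins serve in cell shape and movement. In a bulk sample such as this, fewer cells of a type and less RNA per cell cannot be told apart.

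The 3 arrays resembled each other closely, at r = 0.998 in each pairing across non-control probe sets, which are not independent replicates. Array medians were 5.35 with 3-OHBcP, 5.37 with BcP and 5.32 in the control on the log2 scale. Exactly equal values are common in the deposited table: 6 of the 36 genes had the same value on all 3 arrays, as had 20.9% of all genes. A difference of exactly 0 is therefore no precise measure. The gap between 3' and 5' GAPDH control probes, which reflects RNA quality, was 2.03 with 3-OHBcP, 2.15 with BcP and 2.45 in the control on the log2 scale.

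Most striated genes gave little signal. Of the 25, the 4 genes mb, actc1b, desma and nme2b.2 had a mean at or above the array level, log2 5.35, which is the median over all non-control probe sets. The other 21 lay below it, among them the fast myosin light chains myl1 and mylpfa, all 10 troponin genes and the tropomyosin gene tpma. The muscle markers actc1b, desma and mb thus lay at or above the level, although no detection call was used here to tell signal from background. None of the 4 smooth muscle genes reached the level, whereas 5 of the 7 non-muscle genes did. All 9 genes at or above the level were read from probe sets without the mark A in their names. The smooth genes acta2, mylka and tpm1 and the non-muscle genes below the level, myh9a and tpm4b, were read from probe sets marked A. The part of probe set type in this contrast between classes was not tested. Of 32 measured genes on a list of other striated muscle genes, 2 reached the level. All 8 epidermal genes and 6 of 7 bone genes measured reached it.

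**Figure D1:**
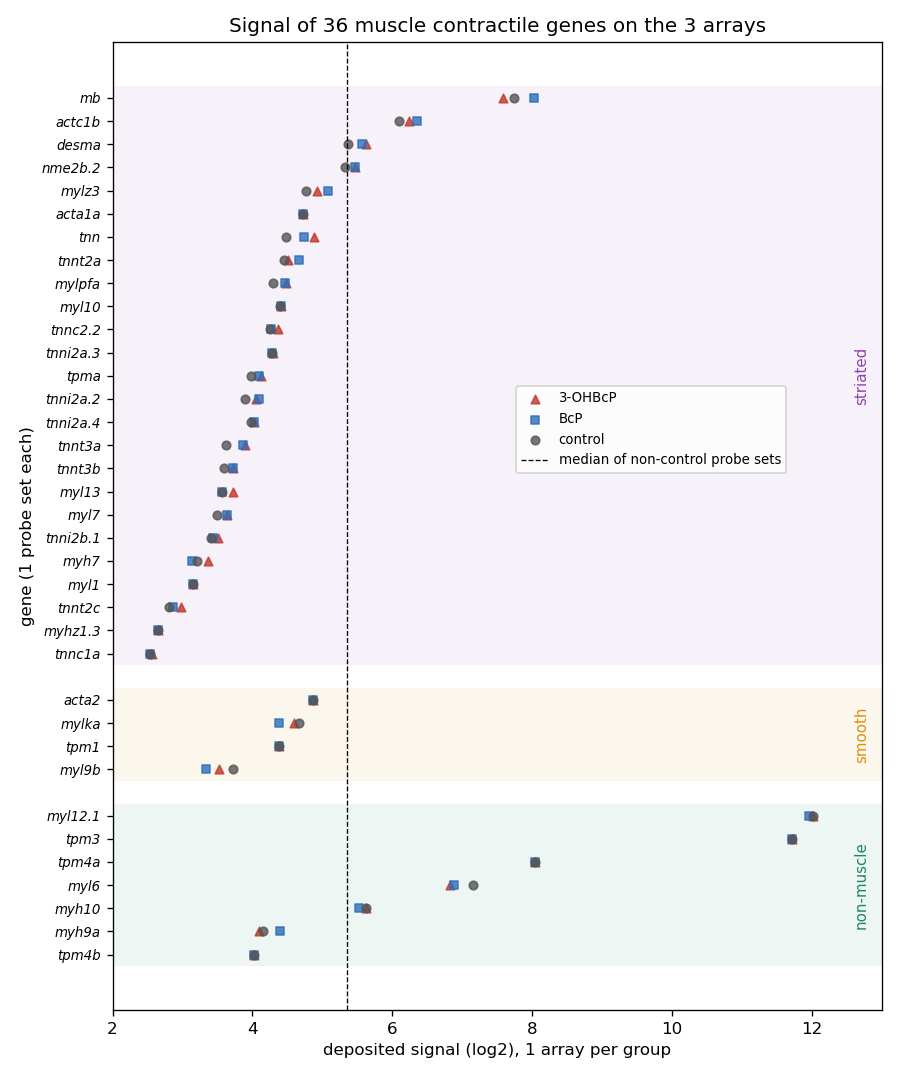
Deposited log2 signal (x axis) of each of the 36 genes (y axis, grouped by class) on the 3-OHBcP, BcP and control arrays, 1 point per array. The dashed line is the median of non-control probe sets, log2 5.35. At or above it are the means of 4 striated, 0 smooth and 5 non-muscle genes. The smooth genes acta2, mylka and tpm1 were read from probe sets marked A in their names, as were the non-muscle genes myh9a and tpm4b.

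The sarcomere actin gene actc1b, which encodes an alpha actin of heart and skeletal muscle, had a log2 signal of 6.23 with 3-OHBcP, 6.35 with BcP and 6.10 in the control. Both compound arrays were above the control, by 0.13 with 3-OHBcP and 0.25 with BcP (1.19-fold) on the log2 scale. The annotation gives this gene 8 probe sets, 4 of them control probe sets that the array maker placed along the transcript and that the symbol rule leaves out. All 8 were higher with BcP than in the control, by 0.093 to 0.26. With 3-OHBcP 7 were higher and 1 was equal, and the range was 0 to 0.41. These probe sets share the same RNA samples, so they are not separate measurements of the samples.

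Along the transcript the actc1b control probe sets did not move alike. The 5' probe set was at 6.61 with 3-OHBcP, 6.30 with BcP and 6.21 in the control. At the 3' end the signal was 5.91 with 3-OHBcP, 5.94 with BcP and 5.73 in the control. The 3' minus 5' difference was thus -0.70 with 3-OHBcP, -0.35 with BcP and -0.47 in the control. With 3-OHBcP the 5' probe set stood 0.41 above the control and the 3' one 0.18 above it, so the size of the actc1b difference depends on the probe set read. The skeletal alpha actin gene acta1a had the same value, 4.73, on all arrays. The paralogue actc1a, which neither the symbol rule nor the lists hold and which was added here after its values were seen, was above the array level at 5.75 on every array. It differed from the control by 0 with BcP and 0.0051 with 3-OHBcP on the log2 scale.

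**Figure D2:**
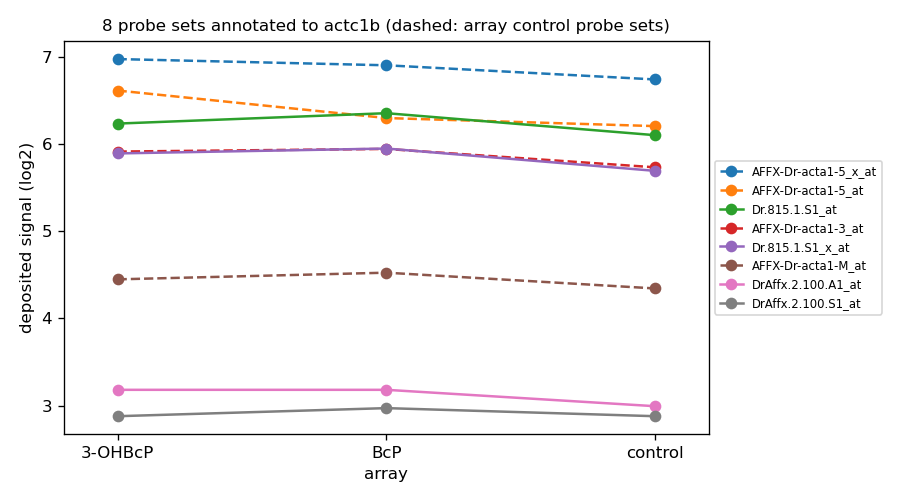
Deposited log2 signal (y axis) of the 8 probe sets annotated to actc1b on the 3-OHBcP, BcP and control arrays (x axis), with lines joining the values of 1 probe set. Dashed lines are the 4 control probe sets; all 8 are lower in the control than with BcP, and 1 of them is equal with 3-OHBcP and in the control.

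Myoglobin, mb, the oxygen-binding protein of muscle, differed from the control in opposite directions with the compounds. Its log2 signal was 7.58 with 3-OHBcP, 8.03 with BcP and 7.75 in the control. That is 0.28 above the control with BcP (1.22-fold) and -0.17 with 3-OHBcP (0.89-fold). The BcP array was the highest and the 3-OHBcP array the lowest. It was the 1 striated gene lower with 3-OHBcP than in the control, and mb has a single probe set.

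The adult alpha globin gene hbaa1, a marker of red blood cells, had a log2 signal of 9.90 with 3-OHBcP, 10.24 with BcP and 9.87 in the control. It was therefore also highest with BcP, by 0.37 over the control, while with 3-OHBcP it differed by 0.034. Of 6 measured blood genes, 3 were higher and 3 equal with BcP, and 3 were higher, 1 lower and 2 equal with 3-OHBcP. Their mean log2 signal was 5.40 with 3-OHBcP, 5.48 with BcP and 5.33 in the control. The globin gene hbae3 was at 5.44 with 3-OHBcP, 5.47 with BcP and 5.12 in the control, a difference of 0.32 and 0.35. With 3-OHBcP and BcP the globin gene hbbe2 differed by -0.12 and 0.15, and hbba2 by 0.15 and 0. The red cell genes alas2 and slc4a1a each had 1 value on all 3 arrays. The blood counts were not repeated after centring or quantile normalization. Beside them, 43.5% of all genes were higher with BcP and 34.3% with 3-OHBcP. Of the 6 blood genes 1 reached the array level, and among genes below the level these shares were 52.1% and 47.3%. The part of blood in the muscle values was not tested.

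Desmin, desma, the intermediate filament of muscle cells, was at 5.62 with 3-OHBcP, 5.57 with BcP and 5.36 in the control. Both compound arrays were above the control, by 0.26 and 0.20 on the log2 scale. The gene nme2b.2, which encodes a nucleoside diphosphate kinase, had 5.46 with 3-OHBcP, 5.47 with BcP and 5.32 in the control. Its differences from the control were 0.14 with either compound. The control values of desma and nme2b.2 sat at the array level or just under it.

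Among the 6 striated light chain genes, mylz3, an essential light chain of fast muscle, stood farthest from the control with BcP. Its log2 signal was 4.92 with 3-OHBcP, 5.08 with BcP and 4.77 in the control, a difference of 0.16 with 3-OHBcP and 0.32 with BcP (1.24-fold). All 3 values lie below the array level. The 6 striated light chain genes were myl1, myl7 (the regulatory light chain of the atrium), myl10, myl13, mylpfa (a fast regulatory light chain) and mylz3. With BcP 4 were higher than in the control and 2 equal, over a range of 0 to 0.32, although centring or quantile normalization split them 3 and 3. With 3-OHBcP 5 were higher and 1 equal, up to 0.20, and either scaling gave 4 higher and 2 lower. Beside these counts, 52.1% of all genes below the array level were higher with BcP and 47.3% with 3-OHBcP. The shares were 41.4% and 40.8% after centring, and 39.2% and 36.5% after quantile normalization.

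The myosin heavy chain genes gave low signal. The ventricular and slow heavy chain gene myh7 and the fast gene myhz1.3 had means of 3.24 and 2.65. They were the 2 striated genes below the control with BcP, at -0.075 and -0.0056, and differed by 0.16 and 0 with 3-OHBcP. Another probe set names both myh7 and myh7l, so the rule leaves it out. It differed by 0.027 with BcP and 0 with 3-OHBcP, but it may read myh7l as well, so it does not settle the direction of myh7. A probe set shared by myha, myhc4, myhz2 and the myhz1 genes, which the rule leaves out for naming several genes, was at 3.27 with 3-OHBcP, 3.48 with BcP and 3.23 in the control. Fast heavy chain genes are near-identical copies, so signals of single copies are uncertain.

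The 10 troponin genes held 2 of troponin C (tnnc1a, tnnc2.2), 4 of troponin I (tnni2a.2, tnni2a.3, tnni2a.4, tnni2b.1) and 4 of troponin T (tnnt2a, tnnt2c, tnnt3a, tnnt3b). With 3-OHBcP all 10 were above the control, by 0.021 to 0.27, but centring left 9 above it and quantile normalization 6. With BcP 8 were above it and 2 equal, by 0 to 0.25, and either scaling split them 5 and 5. Of all genes below the array level, 47.3% were higher with 3-OHBcP and 52.1% with BcP. Centring made these shares 40.8% and 41.4%, and quantile normalization 36.5% and 39.2%. The fast troponin T gene tnnt3a was at 3.89 with 3-OHBcP, 3.87 with BcP and 3.62 in the control. That is 0.27 above the control with 3-OHBcP and 0.25 with BcP, and the compound arrays lay close together. Tropomyosin tpma, which lies along the thin filament, differed by 0.14 with 3-OHBcP and 0.13 with BcP.

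The tenascin gene tnn was at 4.88 with 3-OHBcP, 4.74 with BcP and 4.48 in the control, so it differed by 0.40 and 0.26. Its other probe set differed by 0 with 3-OHBcP and by -0.029 with BcP, so the pair disagreed. As a matrix gene it is counted with the striated class only through its symbol.

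**Figure D3:**
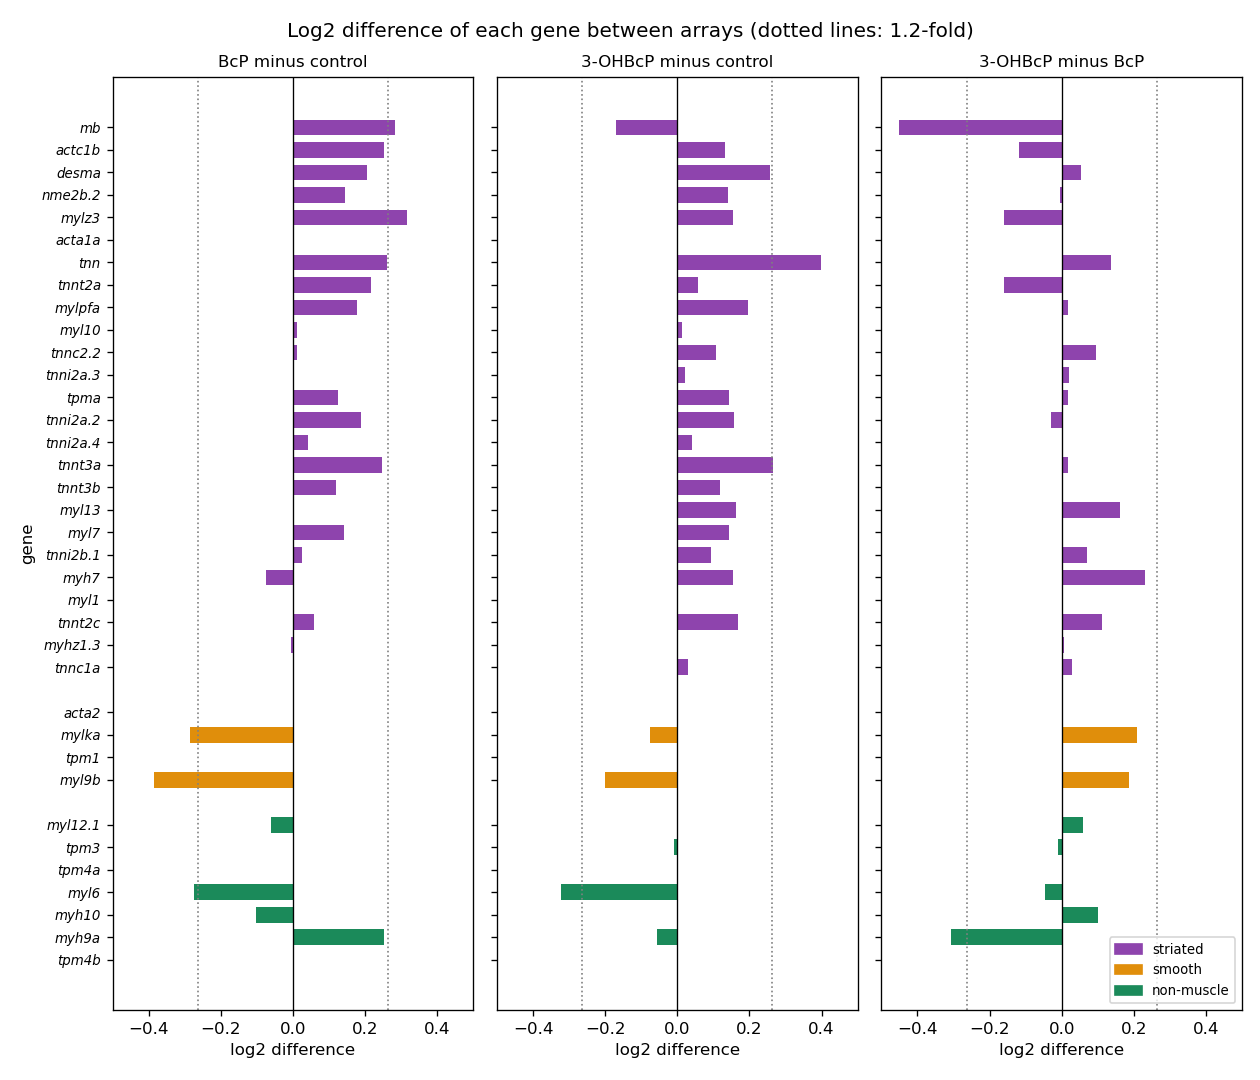
Log2 difference (x axis) of each of the 36 genes (y axis) for BcP minus control, 3-OHBcP minus control and 3-OHBcP minus BcP, 1 array on each side. Bars are coloured by class and dotted lines mark 1.2-fold, a log2 difference of 0.263; 18 of 25 striated genes lie right of 0 with BcP and 21 with 3-OHBcP against the control (14 and 16 after quantile normalization), and 2 of 4 smooth genes lie to the left.

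None of the 36 genes was 1.5-fold apart in any comparison, where 0.136% of all genes were that much higher and 0.398% lower with BcP than in the control. The shares with 3-OHBcP were 0.091% higher and 0.0796% lower than in the control, and 0.341% higher and 0.102% lower than with BcP. At 1.2-fold, mylz3 and mb were higher with BcP, 2 of 25 striated genes, against 5.32% of all genes and 8.86% of genes below the array level. With 3-OHBcP, tnn and tnnt3a were 1.2-fold higher than in the control, 2 of 25 again, against 3.45% of all genes and 6.06% of those below the level. No striated gene was 1.2-fold lower than the control with either compound, where the shares of genes below the level were 2.23% with BcP and 1.5% with 3-OHBcP. Without tnn, 1 of 24 was 1.2-fold higher with 3-OHBcP. These counts are near the background and are no result about the striated genes.

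Taken at any size, 18 of 25 striated genes were higher with BcP than in the control, 2 lower and 5 equal, but after centring each array on its median or after quantile normalization 14 were higher and 11 lower. In the deposited values 43.5% of all genes were higher and 28.1% lower with BcP, and 52.1% of genes below the array level were higher. The median difference was 0.12 over the striated genes, 0 over all genes and 0.0093 over genes below the level. Without tnn the striated median was 0.089. Genes at or above the level were higher in 37.7% of cases. After quantile normalization the order turned, with 39.2% of genes below the level and 52.3% of all genes higher.

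With 3-OHBcP, 21 of 25 striated genes were higher than in the control, 1 lower and 3 equal, whereas centring gave 19 higher and 6 lower and quantile normalization 16 and 9. Of all genes 34.3% were higher and 31.3% lower, and of genes below the level 47.3% were higher. The striated median was 0.13, set beside 0 over all genes and 0 over genes below the level. After centring, 40.8% of genes below the level were higher with 3-OHBcP and 41.4% with BcP. The control array is the same for both compounds, so the 2 comparisons are not separate observations.

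Markers of bone, the main hard tissue of the scale, lay above the control as well. Of 7 measured bone genes all 7 were higher with BcP than in the control, with a median difference of 0.17, but centring left 6 higher and 1 lower. With 3-OHBcP 5 were higher and 2 equal, with a median of 0.13, whereas centring gave 5 higher and 2 lower and quantile normalization put all 7 higher. Of genes at or above the level, as were 6 of the 7, 37.7% were higher with BcP and 25.4% with 3-OHBcP. The collagen gene col1a2 was at 12.70 with 3-OHBcP, 12.50 with BcP and 12.12 in the control, a difference of 0.59 and 0.39. With 3-OHBcP it was the 1 bone gene at least 1.5-fold higher, against 0.091% of all genes. The mean log2 signal of the bone genes was 9.57 with 3-OHBcP, 9.56 with BcP and 9.38 in the control. Of 5 pigment cell genes, none at the array level, 3 were higher and 2 equal with BcP, and 4 were higher and 1 equal with 3-OHBcP. Centring or quantile normalization gave 3 higher and 2 lower of these 5 with BcP. With 3-OHBcP centring gave 4 higher and 1 lower, and quantile normalization 3 higher and 2 lower. Among all genes below the level, 52.1% were higher with BcP and 47.3% with 3-OHBcP. Of 8 epidermal genes 1 was higher and 3 lower with BcP, and 3 were higher and none lower with 3-OHBcP, but after centring all 8 were lower with BcP and 6 with 3-OHBcP. After quantile normalization 2 were higher and 5 lower with BcP, and 2 and 3 with 3-OHBcP. Centring shifts equal values too, and it made 67.5% of all genes lower with BcP and 72.1% with 3-OHBcP. The part of bone, pigment or skin cells in the striated values was not tested.

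**Figure D4:**
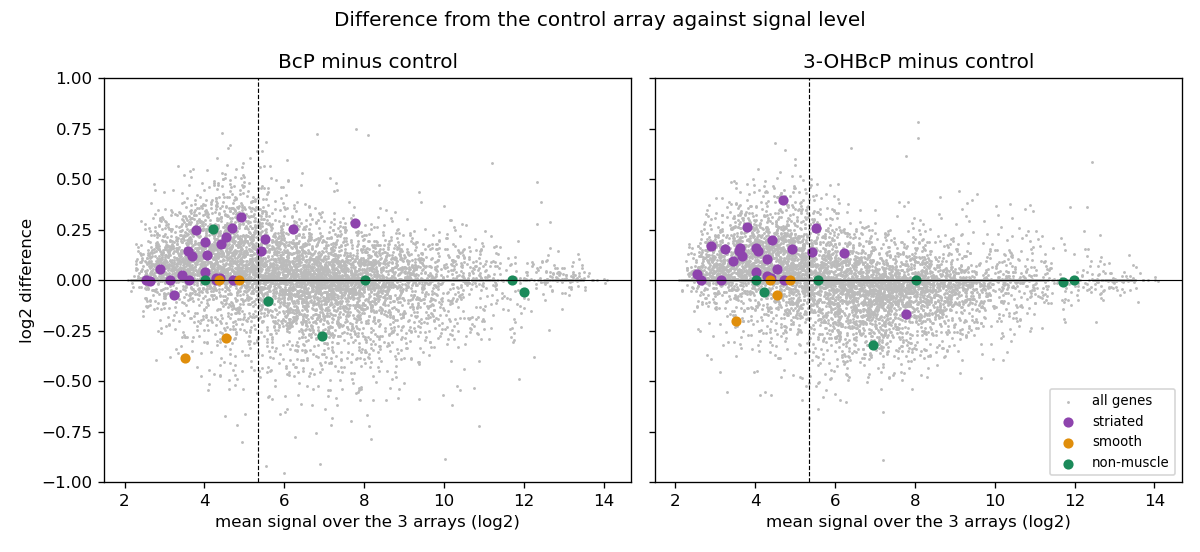
Log2 difference from the control array (y axis) against mean log2 signal over the 3 arrays (x axis) for BcP and for 3-OHBcP, with all genes in grey and the 36 genes coloured by class. The dashed line is the array level of log2 5.35, and 4 genes lie outside the y axis in the BcP panel and 0 in the other; 21 of 25 striated genes lie left of the dashed line, where 52.1% of all genes are above 0 with BcP and 47.3% with 3-OHBcP (39.2% and 36.5% after quantile normalization).

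Other genes of striated muscle gave values of the same kind. Of 67 listed genes outside the symbol rule, 32 were measured. With BcP 23 were higher than in the control, 3 lower and 6 equal, with a median of 0.13, and after quantile normalization 20 were higher and 12 lower. With 3-OHBcP 26 were higher, 1 lower and 5 equal, with a median of 0.11, and after quantile normalization 22 were higher and 10 lower. Centring gave 21 higher and 11 lower with BcP, and 24 and 8 with 3-OHBcP. Of all genes below the array level, 52.1% were higher with BcP and 47.3% with 3-OHBcP. These shares were 41.4% and 40.8% after centring, and 39.2% and 36.5% after quantile normalization. At 1.2-fold, 3 of 32 were higher with BcP, against 5.32% of all genes and 8.86% of those below the level. Likewise 3 were that much higher with 3-OHBcP, against 3.45% and 6.06%, and none was that much lower with either compound. These counts too are small and are no result about the list. Their mean log2 signal was 4.31 with 3-OHBcP, 4.30 with BcP and 4.19 in the control, and that of all genes below the array level was 4.03 with 3-OHBcP, 4.05 with BcP and 3.99 in the control.

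The 2 listed genes that reached the array level did not share a direction. The muscle enolase gene eno3 was at 10.10 with 3-OHBcP, 10.09 with BcP and 10.02 in the control. The gene sypl2b, a relative of a membrane protein of muscle triads, was at 6.86 with 3-OHBcP, 6.79 with BcP and 6.98 in the control, so its compound arrays were the lower ones. Calsequestrin casq2, the calcium store of the cardiac sarcoplasmic reticulum, had 5.28 with either compound and 5.07 in the control.

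**Figure D5:**
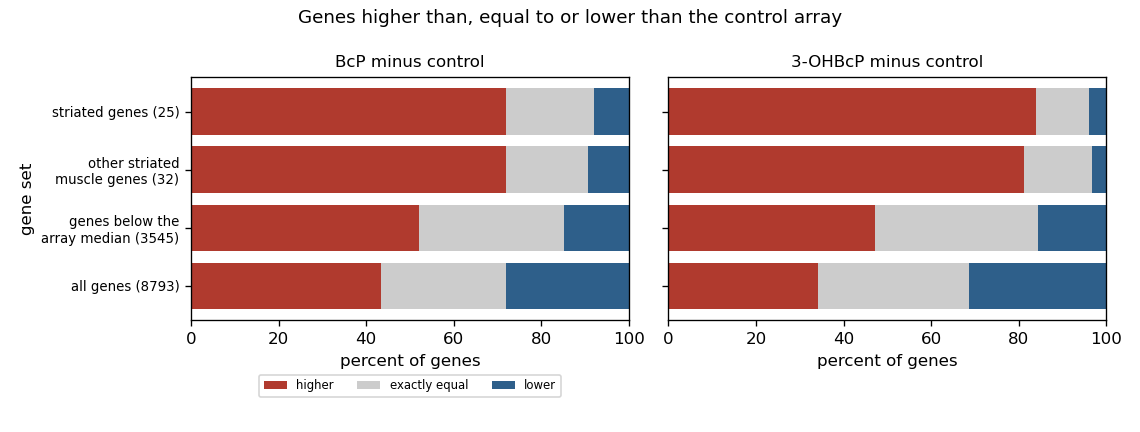
Percent of genes (x axis) higher than, exactly equal to or lower than the control array for BcP and 3-OHBcP, in 25 striated genes, 32 other striated muscle genes, 3545 genes below the array median and all 8793 genes (y axis). The striated bars show 72.0% higher with BcP and 84.0% with 3-OHBcP, and these are 56.0% and 76.0% once arrays are centred on their medians. Centring also lowers the shares of all genes higher, to 32.5% with BcP and 27.9% with 3-OHBcP. For genes below the array median it gives 41.4% and 40.8%.

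Most transcription factors of muscle that differed from the control were higher in the deposited values, but not all. Of 12 measured, 6 were higher, 1 lower and 5 equal with BcP, and 7 were higher, 2 lower and 3 equal with 3-OHBcP. These factor counts were not repeated after centring or quantile normalization. Of all genes 43.5% were higher and 28.1% lower with BcP, and 34.3% and 31.3% with 3-OHBcP. Of the 12 factors, 4 reached the array level. Among genes below the level, 52.1% were higher and 14.9% lower with BcP, and 47.3% and 15.6% with 3-OHBcP. The myogenic factors myod1 and myf5 had the same value on all arrays, whereas myf6 and myog were above the control. For myf6 the difference was 0.30 with 3-OHBcP and 0.11 with BcP, and for myog 0.20 and 0.043. All of these factors lay below the array level, as did pax3a, which differed by 0.16 with 3-OHBcP and 0.28 with BcP. The factor gene mef2d was at 7.43 with 3-OHBcP, 7.20 with BcP and 7.63 in the control, a difference of -0.20 and -0.43. The gene mef2aa differed by 0.10 with 3-OHBcP and 0.0026 with BcP, and mrtfab, a coactivator of serum response factor, by -0.052 and 0.083.

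Of the 4 smooth muscle genes, 2 were lower than in the control and 2 equal with either compound. In the deposited values 28.1% of all genes were lower with BcP and 31.3% with 3-OHBcP. Of genes below the array level, where all 4 lie, these shares were 14.9% and 15.6%. After centring or quantile normalization all 4 smooth genes were lower, but centring makes the 2 equal genes lower through the array shift alone. It made 67.5% of all genes lower with BcP and 72.1% with 3-OHBcP. After quantile normalization 60.8% of genes below the level were lower with BcP and 63.4% with 3-OHBcP. The smooth muscle actin gene acta2 had 4.87 on every array. The tropomyosin gene tpm1, counted with the smooth class though also used outside smooth muscle, was likewise the same on all 3. The regulatory light chain gene myl9b was at 3.52 with 3-OHBcP, 3.34 with BcP and 3.72 in the control. That is -0.20 with 3-OHBcP and -0.39 with BcP, with the control array highest. The light chain kinase gene mylka had 4.59 with 3-OHBcP, 4.38 with BcP and 4.67 in the control, or -0.075 and -0.29.

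With BcP, 2 of these 4 were 1.2-fold lower, against 4.59% of all genes and 2.23% of genes below the level. With 3-OHBcP none was 1.2-fold apart from the control. The other mylka probe set went against the first, at 0.12 with 3-OHBcP and 0.078 with BcP. With that one in place of the probe set of multiple transcripts, the class median was 0 with either compound. The probe sets of acta2, tpm1 and mylka are marked A in their names, which gives their orientation, and so are those of acta1a, myh7, myh9a and tpm4b; what such probe sets measure was not tested.

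Other genes, from a list for smooth muscle and pericytes, gave mixed values. Their signal in these bulk samples names no cell type. Of 8 measured, 5 were higher, 1 lower and 2 equal with BcP, and 2 were higher, 3 lower and 3 equal with 3-OHBcP. Neither centring nor quantile normalization was applied to these counts. Of genes at or above the level, as were 6 of the 8, 37.7% were higher and 37.1% lower with BcP. With 3-OHBcP these shares were 25.4% and 41.9%. The calponin gene cnn2 was at 10.77 with 3-OHBcP, 10.74 with BcP and 10.93 in the control. The transgelin gene tagln2, an actin-binding protein, was at 11.80 with 3-OHBcP, 11.81 with BcP and 11.80 in the control. The receptor gene notch3, active in pericytes, had 6.85 with 3-OHBcP, 7.54 with BcP and 7.03 in the control. The factor gene foxc1b differed by 0.19 with 3-OHBcP and 0.31 with BcP. Vessel markers were low: of 4 endothelial genes none reached the array level, and their mean log2 signal was 4.31 with 3-OHBcP, 4.41 with BcP and 4.30 in the control.

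Most non-muscle genes lay close to their control values. The regulatory light chain gene myl12.1 was at 12.02 with 3-OHBcP, 11.96 with BcP and 12.02 in the control. Its second probe set had 11.48 with 3-OHBcP, 11.60 with BcP and 11.52 in the control, so with BcP the pair differed in sign, -0.059 and 0.086. Another myl12.1 probe set, marked A, read 2.51 with 3-OHBcP, 2.54 with BcP and 2.51 in the control, and these probe sets are not on 1 scale.

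The tropomyosin gene tpm3 was at 11.71 with 3-OHBcP and 11.72 on the other arrays, and tpm4a was at 8.03 on all 3. The non-muscle myosin heavy chain gene myh10 was at 5.62 with 3-OHBcP, 5.52 with BcP and 5.62 in the control. The remaining tropomyosin gene, tpm4b, had 1 value on all 3 arrays.

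The essential light chain gene myl6, used in smooth muscle as well, had 6.83 with 3-OHBcP, 6.88 with BcP and 7.15 in the control. Both compound arrays were lower, by -0.32 with 3-OHBcP (0.80-fold) and -0.28 with BcP (0.83-fold). It was the 1 non-muscle gene 1.2-fold apart from the control, of 7. With 3-OHBcP 3.71% of all genes were that much lower, and with BcP 4.59%. The non-muscle heavy chain gene myh9a was at 4.09 with 3-OHBcP, 4.40 with BcP and 4.15 in the control, below the array level.

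As a class, non-muscle genes had a median difference of 0 from the control with either compound. With BcP 1 was higher, 3 lower and 3 equal, but centring gave 1 higher and 6 lower and quantile normalization 3 and 3. With 3-OHBcP none was higher, 3 were lower and 4 equal, where centring put all 7 lower and quantile normalization gave 2 higher and 5 lower. Centring shifts equal genes as well, and after it 67.5% of all genes were lower with BcP and 72.1% with 3-OHBcP. After quantile normalization 47.3% of all genes were lower with BcP and 47.8% with 3-OHBcP. Of 19 measured regulators of non-muscle actin, 13 were higher and 5 lower with BcP, and 3 higher and 9 lower with 3-OHBcP. These regulator counts are from the deposited values and were not repeated after centring or quantile normalization. Of genes at or above the level, as were 17 of the 19, 37.7% were higher and 37.1% lower with BcP. With 3-OHBcP these shares were 25.4% and 41.9%. None of the 19 regulators was 1.2-fold apart from the control. The cytoplasmic actin genes actb1 and actb2 differed by -0.0040 and -0.051 with 3-OHBcP and by -0.0040 and 0.031 with BcP, and the cofilin gene cfl1l by -0.064 and 0.019.

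The compounds differ by a hydroxyl group on the ring system and were used at the same dose and time, which allows 1 pair of arrays to be compared. At 1.2-fold, mb and myh9a were lower with 3-OHBcP than with BcP, 2 of 36 genes, where 2.95% of all genes were that much lower and 2.62% higher. The difference was -0.45 for mb (0.73-fold) and -0.31 for myh9a (0.81-fold). Over the striated genes 13 were higher, 6 lower and 6 equal with 3-OHBcP against BcP, while centring and quantile normalization each gave 20 higher and 5 lower. In the deposited values 25.5% of all genes were higher and 39.8% lower. After centring, 65.9% of all genes and 69.8% of genes below the level were higher with 3-OHBcP than with BcP, and after quantile normalization 58.9% and 65.8%, so the direction turned for all genes as well. The striated median was 0.0056, and that of all genes was 0. The smooth genes myl9b and mylka were 0.19 and 0.21 higher with 3-OHBcP. Since each compound had 1 array, these differences have no interval, and they do not show that the compounds act alike on the other genes.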

How the data were processed

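Zebrafish scale RNA was hybridised to Affymetrix Zebrafish Genome arrays, 3 in all, 1 each for scales with 3-OHBcP, with BcP and without either compound. The deposited table holds a value for each probe set on each array, made by the authors in Affymetrix Expression Console, as stated per the submitters' processing notes. Their range put the deposited values on a log2 scale, which no header names. Which algorithm, version and background step were used is not given in the sources used here. No further scaling was applied. Per the labels' protocols, labelling used a 3' in vitro transcription kit.

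Of 15502 non-control probe sets, the platform annotation of the array gave 1 symbol to 10795. Current symbols came from RefSeq (GRCz12tu) by gene identifier, found for 10711 of them, and that table was used for names alone. A gene with several probe sets was read from the one of highest average signal. The array level is the median over non-control probe sets of that mean, log2 5.35. Differences are between 2 arrays, and a gene counts as apart at 1.2-fold (log2 0.263) or 1.5-fold (log2 0.585). These are descriptions: with 1 array per group there is no test, p-value, standard error or interval, and the number of arrays limits the precision.

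The members, classes and lists were chosen with earlier results of these data known. Members at or above the array level, those at least 1.2-fold apart in a comparison, and actc1b, desma, mb and acta2 are given with values. The others are given by counts and ranges, except that acta1a, tpma, myh7 and myhz1.3 are given with values as well. From other lists, the 3 genes with the highest mean and any at least 1.5-fold apart may be named. Any other gene named in the results was chosen after its values were seen. The 1.5-fold counts and the median were tested on simulated data with planted changes larger than 1.5-fold. Counts at 1.2-fold, at any size and of equal values were not tested in this way. The work used Python 3.11.15, numpy 2.4.6 and pandas 2.3.3. Alternatives were array centring, quantile normalization, 32 added to the linear value, averaged probe sets, leaving out probe sets of multiple transcripts and level filters. Added after seeing the data were leaving out tnn, leaving out probe sets marked A, and removing the trend with signal level in 20 bins.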

Additional observations from a re-analysis of the deposited data

How the results depend on the processing

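No paired analysis was possible because each group had 1 array. With no replicate spread, a class median counted as moved at a shift of 0.05 or more on the log2 scale, and a count of genes at a change of over 1.5 times. For BcP minus control, the striated median of 0.12 was 0.056 after quantile normalization, 0.034 with 32 added to the linear value, 0.23 over the 4 members at or above the array level and 0.28 for the 1 member (mb) at or above the 75th percentile. The smooth median of -0.14 was -0.21 after quantile normalization, -0.051 with 32 added, -0.052 with probe sets averaged, 0 without probe sets of multiple transcripts and -0.39 for the 1 gene left without probe sets marked A. The non-muscle median of 0 was -0.059 over the 5 members at or above the array level, and also over the 5 without probe sets marked A.

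For 3-OHBcP minus control, the striated median of 0.13 was 0.036 with 32 added and -0.17 for mb alone at the 75th percentile, which turned the sign. The smooth median of -0.038 was -0.092 after quantile normalization and -0.20 without probe sets marked A. For 3-OHBcP minus BcP, the striated median of 0.0056 turned to -0.062 over the 4 members at or above the array level and to -0.45 for mb. The smooth median of 0.093 was 0.024 with 32 added, 0.021 without probe sets of multiple transcripts and 0.19 without probe sets marked A. Fewer members enter the level-filtered values. Adding 32 to the linear value shrinks log2 differences by construction, most at low signal. The cause of the other shifts was not tested.

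The genes at least 1.2-fold apart numbered 5 with BcP against control, 3 with 3-OHBcP against control and 2 between the compounds. With 32 added they numbered 0, 0 and 1. At or above the array level they numbered 2, 1 and 1, and at or above the 75th percentile 1, 0 and 1. Without probe sets marked A, 1 gene stood apart between the compounds. The other 84 class medians and counts under an alternative stayed within these limits. Without tnn the striated medians were 0.089, 0.13 and 0.0028 for the 3 comparisons in the order above. With the trend with signal level removed, 15 striated genes were higher and 8 lower with BcP, and 21 and 1 with 3-OHBcP. Signal over background limits the 27 members below the array level, for which no detection call was used here.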
